A study of Homo sapiens with 9 samples.

Results

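The ATF4 amino acid stress response genes are 41 genes that encode the transcription factor ATF4, its partner factors, and the enzymes, amino acid transporters, secreted proteins and feedback regulators known as its programme. They were compared across RNA sequencing libraries of Huh7 cells in which the histone demethylase KDM4C had been knocked down. The members were chosen by name, with earlier results of these same libraries in view, so the measured values of all 3 comparisons are taken as used in the choice, and the counts and fold changes given here describe the members and support nothing beyond them. All 41 were among the 32906 genes listed, and 39 of them were among the 14363 genes whose mean reached 1 FPKM in any of the groups and which were tested. The exceptions were ALDH1L2 and FGF21, which lay under that mean in every group. FPKM is the number of sequenced fragments of a gene per kilobase of exon, scaled to the depth of the library, so it can be compared between genes of different length.

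The cells are labelled Huh7, an established human hepatocellular carcinoma line, with no engineered allele given in the labels. Cells were transfected with a scrambled control siRNA (Scramble) or with either of 2 siRNAs against KDM4C (Si-KDM4C#1 and Si-KDM4C#2), and RNA was taken 48 hours later, with 3 libraries in each group and 9 in all. All groups therefore share the cell line, the transfection and the time, and the knockdown is transient. The labels give a replicate number, and the methods say in general that experiments were independently repeated, without saying whether the libraries of a group came from separate cultures. If they did not, the error of a comparison measures the spread between these libraries, which may be technical. No batch or sequencing date is given.

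Between 14597503 and 18058557 fragments per library were recovered from the FPKM values, and each of the 41 genes gave whole numbers of fragments in every library. Any pair of libraries of the same group differed by more than counting noise, with a chi-square per degree of freedom of 2.69 to 6.3. KDM4C itself was at 4.88, 4.63 and 4.57 FPKM in the Scramble libraries, 1.18, 1.1 and 1.13 FPKM under Si-KDM4C#1 and 0.256, 0.349 and 0.256 FPKM under Si-KDM4C#2, so it was lower with both siRNAs and lowest with Si-KDM4C#2, with no overlap between groups. Of 16 hepatocyte markers 11 were listed, AFP and HNF4A among them, and all 11 stayed under 1 FPKM in every library, so the measured hepatocyte markers went against the hepatocellular label, and ALB, APOB, APOC3, TTR and GPC3 were not analysed here. Of the epithelial markers, the keratins KRT8 and KRT18 were at 95.5 FPKM or more and CDH1 at 0.0322 FPKM or less, and their sum was 329.8 to 353 FPKM for Scramble, 289.7 to 309 FPKM for Si-KDM4C#1 and 240.1 to 254 FPKM for Si-KDM4C#2. The summed level of 6 fibroblast markers was 49.4 to 52.9 FPKM in the Scramble libraries, 56.0 to 59.1 FPKM under Si-KDM4C#1 and 79.6 to 80.7 FPKM under Si-KDM4C#2. Its members did not move together, since the means of COL3A1 were 27.5, 38.5 and 55.5 FPKM and those of COL1A1 14.8, 15.4 and 17.5 FPKM, while LUM was at 6.97, 3.58 and 6.15 FPKM, PDGFRB at 1.95, 0.308 and 1.03 FPKM, and COL1A2 and DCN stayed under 0.1 FPKM. The 4 listed blood markers and the 3 endothelial markers stayed under 1 FPKM. The part of these marker levels in the values below was not tested. In bulk RNA of this kind, a change in the share of cells that express a gene and a change of its RNA per cell cannot be told apart.

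ATF4 is the main transcription factor of the integrated stress response. When kinases such as GCN2 or PERK phosphorylate the translation factor eIF2, most protein synthesis slows, while the ATF4 mRNA is translated more efficiently. ATF4 protein then pairs with C/EBP factors on composite sites, the C/EBP-ATF response elements, and switches on genes that import and make amino acids, charge and export tRNA, and, when stress lasts, feed back on translation or promote cell death. The libraries measure mRNA only, so neither ATF4 protein nor eIF2 phosphorylation is seen here.

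Sequences before the start sites are shown because the members are known as targets of a factor that binds this element. RefSeq promoter windows of GRCh38.p14, running from 250 bases before to 50 bases after a start site, were at hand for 33 of the 41 genes, and some of these genes have several starts. The C/EBP-ATF response element was searched as TGATGNAA on both strands, and the cyclic AMP response element as TGACGTCA, and no match of one overlapped a match of the other. The first was present for 11 of the 33 genes (33.3%), compared with 1217 of all 27305 genes in the same table (4.46%). A gene with several starts has more windows in which to match. Counted by window, the shares were 13 of 55 (23.6%) and 1270 of 35116 (3.62%). The cyclic AMP response element was present for 1 of the 33 genes (3.0%), PPP1R15A, and for 2.25% of all genes. The 11 genes with the C/EBP-ATF element were ASNS, ATF3, CEBPG, CHAC1, FGF21, JDP2, MTHFD1L, SLC1A4, SLC1A5, SLC3A2 and SLC7A1. The stretches below are those of ASNS, whose element is the textbook amino acid response element, and of genes whose values are given by library further on. They read 5′ to 3′ along the strand of the gene, and capitals mark the element, read as TTGCATCA where it lies on the opposite strand.
ASNS: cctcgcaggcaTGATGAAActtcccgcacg
ATF3: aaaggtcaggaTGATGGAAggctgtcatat
CEBPG: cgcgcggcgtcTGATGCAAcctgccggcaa
CHAC1: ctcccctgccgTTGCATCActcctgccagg
JDP2: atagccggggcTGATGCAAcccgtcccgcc
SLC1A5: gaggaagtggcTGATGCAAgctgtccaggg
SLC7A1: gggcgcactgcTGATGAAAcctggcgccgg
The ASNS stretch lies on the minus strand at chr7:97872458-97872487, with the element in an exon of the GENCODE annotation. That of ATF3 lies upstream of the gene on the plus strand at chr1:212565205-212565234. The elements of CEBPG (chr19:33374060-33374089, plus strand) and JDP2 (chr14:75427995-75428024, plus strand) lie in introns ahead of a further start site. The elements of CHAC1 (chr15:40953251-40953280, plus strand), SLC1A5 (chr19:46784893-46784922, minus strand) and SLC7A1 (chr13:29595663-29595692, minus strand) lie in exons. Among the tested genes with a window, the median log2 fold change with Si-KDM4C#1 was 0.92 for the 10 with the element and 0.87 for the 22 without it. With Si-KDM4C#2 these medians were 0.30 and 0.28. The presence of the letters is a description and does not show binding. Elements outside these windows, or with other letters, were not searched, so nothing is read from these medians.

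Against Scramble, most of the 39 tested genes were higher with Si-KDM4C#1, and fewer were higher with Si-KDM4C#2. A gene was called at an FDR (Benjamini-Hochberg) under 0.05 in a limma fit of all tested genes and a fold change over 2, with log2 fold changes taken on the log2(FPKM + 1) scale, on which the change of a weakly expressed gene is understated. With Si-KDM4C#1, 20 of the 39 genes (51.3%) were called higher, where 4.04% of all tested genes were, and 1 was called lower, where 4.83% of all tested genes were. With Si-KDM4C#2, 10 genes (25.6%) were called higher and 1 was called lower, where the shares over all tested genes were 2.6% and 2.3%. With the GC adjustment, the 10 became 6. Comparing the siRNAs directly, none of the 39 was called higher for Si-KDM4C#2 by limma (3 were past the FDR alone), where 4.41% of all tested genes were. In the same comparison 6 were called lower (15.4%), where 2.49% of all tested genes were.

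Without the fold change limit, the members past the FDR with Si-KDM4C#1 were 35 on the higher and 3 on the lower side, where 31.7% and 33.9% of all tested genes were. For Si-KDM4C#2 these numbers were 25 and 9, where 34.4% and 25% of all tested genes were. Between the siRNAs, 3 members were past the FDR on the higher side for Si-KDM4C#2 and 29 on the lower side, where 35.9% and 26.5% of all tested genes were. The median log2 fold change of the 39 genes was 1.01 with Si-KDM4C#1, 0.32 with Si-KDM4C#2 and -0.46 for Si-KDM4C#2 against Si-KDM4C#1. Over all tested genes these medians were -0.03, 0.06 and 0.08. Because the rule for choosing the members could draw on these comparisons, nothing is read from the gap between the shares.

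**Figure D1:**
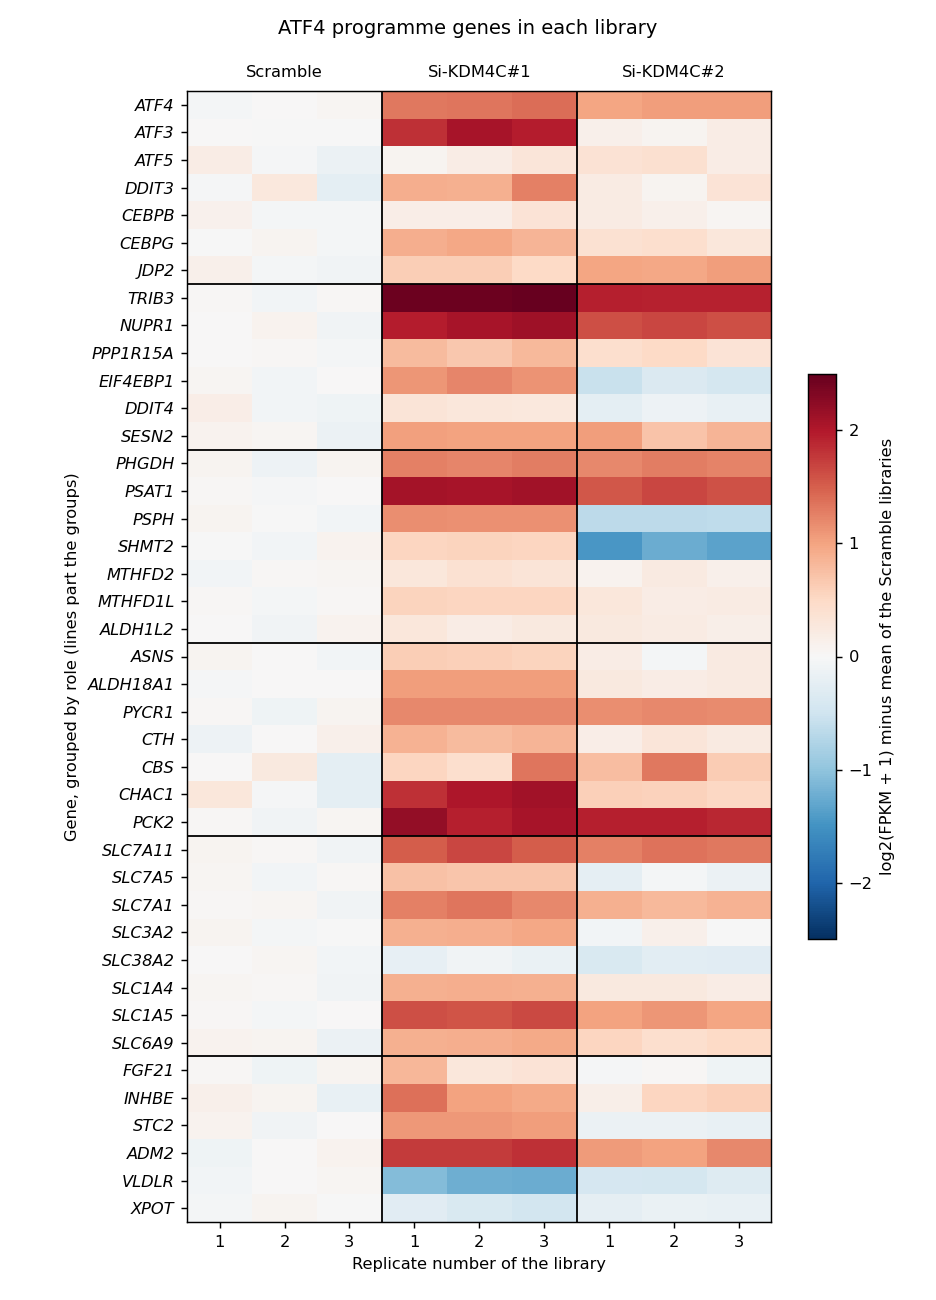
Each row is 1 of the 41 genes and each column 1 of the 9 libraries, and the colour gives log2(FPKM + 1) minus the mean of the Scramble libraries, red for higher and blue for lower. The 3 libraries of a group look alike in nearly every row. Red is strongest for TRIB3, PSAT1, PCK2 and NUPR1 with both siRNAs, SHMT2 and PSPH are blue with Si-KDM4C#2 alone, and VLDLR is the deepest blue with Si-KDM4C#1.

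The calls fell into a few patterns. The shares of all tested genes with the same joint calls were not worked out, so nothing is read from the counts of these patterns. Called higher with both siRNAs were 10 genes, ATF4, TRIB3, NUPR1, PHGDH, PSAT1, PYCR1, PCK2, SLC7A11, SLC1A5 and ADM2. Called higher with Si-KDM4C#1 and not with Si-KDM4C#2 were another 10, ATF3, DDIT3, EIF4EBP1, SESN2, PSPH, ALDH18A1, CHAC1, SLC7A1, INHBE and STC2. No member was called higher with Si-KDM4C#2 alone, but JDP2 lay at the limit, with a log2 fold change of 1.0 and a mean 2.33 times Scramble. The number of members called higher with Si-KDM4C#2 was 12 with a pseudocount of 0.1 and 11 with limma voom, so this absence depends on the processing. In 34 of the 39 genes the mean FPKM was larger with Si-KDM4C#1 than with Si-KDM4C#2 (87.2%), where 43.0% of all tested genes had the larger mean with Si-KDM4C#1. The comparisons with Scramble use the same 3 Scramble libraries, so the values with each siRNA are given side by side.

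Some calls lay near the fold change limit and fell under it when the values were scaled otherwise, while staying past the FDR in the same direction. For Si-KDM4C#1, quantile normalization gave log2 fold changes of 0.96 for EIF4EBP1, 0.91 for SESN2, 0.99 for PSPH, 0.85 for ALDH18A1, 0.98 for DDIT3 and 0.96 for STC2. The GC adjustment gave 0.83 for EIF4EBP1, 0.82 for SESN2 and 0.97 for PYCR1. For Si-KDM4C#2, the GC adjustment gave 0.89 for PYCR1 and 0.77 for ADM2. The calls of TRIB3, NUPR1, PHGDH, PSAT1, PCK2 and SLC7A11 with both siRNAs held under every alternative that was run.

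Of the 7 transcription factors, 6 were past the FDR higher with Si-KDM4C#1, and 3 of these were called. With Si-KDM4C#2, 4 were past the FDR higher and only ATF4 was called, and none was lower with either siRNA. For this and the role groups below, 31.7% of all tested genes were past the FDR higher and 33.9% lower with Si-KDM4C#1. With Si-KDM4C#2 these shares were 34.4% and 25%. The shares called higher were 4.04% and 2.6%, and nothing is read from the counts of a role group. ATF4 mRNA (chr22:39519695-39522685) was at 65.1, 68.1 and 70.1 FPKM in the Scramble libraries, 171, 173 and 181 FPKM under Si-KDM4C#1, and 136, 141 and 141 FPKM under Si-KDM4C#2. The 3 groups did not overlap, and the highest libraries were those of Si-KDM4C#1. Its log2 fold change was 1.35 for Si-KDM4C#1 and 1.03 for Si-KDM4C#2 (each with a standard error of 0.0386), and the difference between the siRNAs was -0.32. The second of these calls lies close to the fold change limit, and the log2 fold change of ATF4 with Si-KDM4C#2 was 0.85 after adjusting each library for GC content and 0.90 after quantile normalization.

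ATF3, a stress-induced factor of the same family that ATF4 is known to switch on, was at 3.75, 3.70 and 3.71 FPKM in the Scramble libraries, 15.7, 18.8 and 17.4 FPKM under Si-KDM4C#1 and 4.18, 3.94 and 4.37 FPKM under Si-KDM4C#2. The Si-KDM4C#1 libraries stood far above the other 6, whose groups were close together. The log2 fold change of ATF3 was 1.95 with Si-KDM4C#1 (standard error 0.0651) and 0.13 with Si-KDM4C#2 (adjusted p = 0.118, limma with Benjamini-Hochberg adjustment), and the difference of -1.82 between the siRNAs was called. DDIT3, which encodes the pro-apoptotic factor CHOP, was at 6.79, 8.42 and 5.71 FPKM in the Scramble libraries, 13.9, 13.6 and 18.0 FPKM under Si-KDM4C#1 and 8.10, 7.23 and 9.06 FPKM under Si-KDM4C#2. Its libraries spread widely, and those of Si-KDM4C#2 overlapped those of Scramble while those of Si-KDM4C#1 lay above both. The log2 fold change of DDIT3 with Si-KDM4C#1 was 1.03 (standard error 0.139), and it was 0.91 without the third Scramble library and 0.90 without the third Si-KDM4C#1 library, under the fold change limit. DDIT3 shares 27.2% of its exon length with MARS on the opposite strand. The kit named in the labels does not mark strand, so fragments of a stretch shared in this way cannot be told apart by strand. MARS was at 23.4 FPKM in the Scramble libraries, 43.1 FPKM under Si-KDM4C#1 and 42.4 FPKM under Si-KDM4C#2, and its part in the DDIT3 values was not tested.

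JDP2, a repressor of AP-1 sites, went the other way between the siRNAs. It was at 3.28, 2.79 and 2.69 FPKM in the Scramble libraries, 5.03, 4.98 and 4.51 FPKM under Si-KDM4C#1 and 6.77, 6.60 and 7.07 FPKM under Si-KDM4C#2, with no overlap between groups. The log2 fold changes of JDP2 were 0.58 and 1.00 (each with a standard error of 0.0687), the second just under the fold change limit, and it was higher with Si-KDM4C#2 than with Si-KDM4C#1 past the FDR, with a log2 difference of 0.42. CEBPG, a known dimer partner of ATF4, was at 9.54, 10.1 and 9.30 FPKM in the Scramble libraries, 19.1, 19.7 and 18.2 FPKM under Si-KDM4C#1 and 12.9, 13.3 and 12.0 FPKM under Si-KDM4C#2. Its groups were separate and ordered like those of ATF4, with log2 fold changes of 0.91 and 0.37.

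CEBPB, a C/EBP factor, was at 41.6, 37.1 and 37.2 FPKM in the Scramble libraries, 43.7, 43.3 and 49.2 FPKM under Si-KDM4C#1 and 44.6, 42.0 and 40.1 FPKM under Si-KDM4C#2. Its log2 fold changes of 0.23 and 0.12 changed sign to -0.10 and -0.27 with the GC adjustment, so no direction is given for it. ATF5, a factor known for its role in the mitochondrial stress response, was at 5.00, 4.11 and 3.71 FPKM in the Scramble libraries, 4.50, 4.94 and 5.46 FPKM under Si-KDM4C#1 and 5.74, 5.94 and 5.00 FPKM under Si-KDM4C#2. The 3 groups of ATF5 overlapped, its log2 fold change was 0.18 with Si-KDM4C#1 (adjusted p = 0.137, limma) and 0.32 with Si-KDM4C#2, and 21.2% of its exon length is shared with NUP62 on the opposite strand.

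The 6 feedback and signalling genes were all past the FDR higher with Si-KDM4C#1, and 4 were called. With Si-KDM4C#2, 4 were past the FDR higher, of which 2 were called, and 2 were lower. TRIB3 (chr20:362835-397559), a pseudokinase that binds ATF4 and CHOP and restrains them, had the largest fold change of the 39 genes with Si-KDM4C#1. It was at 9.59, 8.90 and 9.57 FPKM in the Scramble libraries, 55.7, 55.7 and 57.2 FPKM under Si-KDM4C#1 and 38.8, 38.4 and 38.5 FPKM under Si-KDM4C#2. The libraries of each group lay close together and far from the next group, with a mean 6.01 times that of Scramble for Si-KDM4C#1 and 4.12 times for Si-KDM4C#2. The log2 fold changes of TRIB3 were 2.47 and 1.93 (each with a standard error of 0.0368). NUPR1, a small stress-induced nuclear protein, was at 3.19, 3.42 and 2.94 FPKM in the Scramble libraries, 15.4, 16.5 and 17.2 FPKM under Si-KDM4C#1 and 11.7, 12.3 and 11.8 FPKM under Si-KDM4C#2. It followed the order of TRIB3 with no overlap, with log2 fold changes of 2.05 and 1.63.

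The other genes of this group act on mTORC1 or on translation. SESN2, a leucine sensor upstream of mTORC1, was at 12.4, 12.0 and 10.4 FPKM in the Scramble libraries, 24.7, 24.1 and 24.4 FPKM under Si-KDM4C#1 and 25, 19.7 and 21.8 FPKM under Si-KDM4C#2. Both knockdown groups lay above Scramble and overlapped each other, and the log2 fold changes of SESN2 were 1.01, just past the fold change limit (0.95 without the third Scramble library), and 0.87, just under it. EIF4EBP1, which encodes the repressor 4E-BP1 of cap-dependent translation, was at 58.8, 54.6 and 57.8 FPKM in the Scramble libraries, 123, 134 and 126 FPKM under Si-KDM4C#1 and 38.4, 44.3 and 41.7 FPKM under Si-KDM4C#2. The Si-KDM4C#1 libraries were thus above Scramble and the Si-KDM4C#2 libraries below it, with log2 fold changes of 1.15 and -0.45 and a called difference of -1.60 (standard error 0.0562). DDIT4, an inhibitor of mTORC1 also known as REDD1, moved in the same opposite directions by less, with means of 70.6 ± 7.55, 86.1 ± 1.57 and 61.7 ± 2.25 FPKM (SD, n = 3) with Scramble, Si-KDM4C#1 and Si-KDM4C#2. PPP1R15A, which encodes the GADD34 subunit that brings a phosphatase to eIF2, was at means of 5.51 ± 0.183, 9.99 ± 0.565 and 7.72 ± 0.484 FPKM (SD, n = 3) in the same order, past the FDR higher with each siRNA and called with neither.

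**Figure D2:**
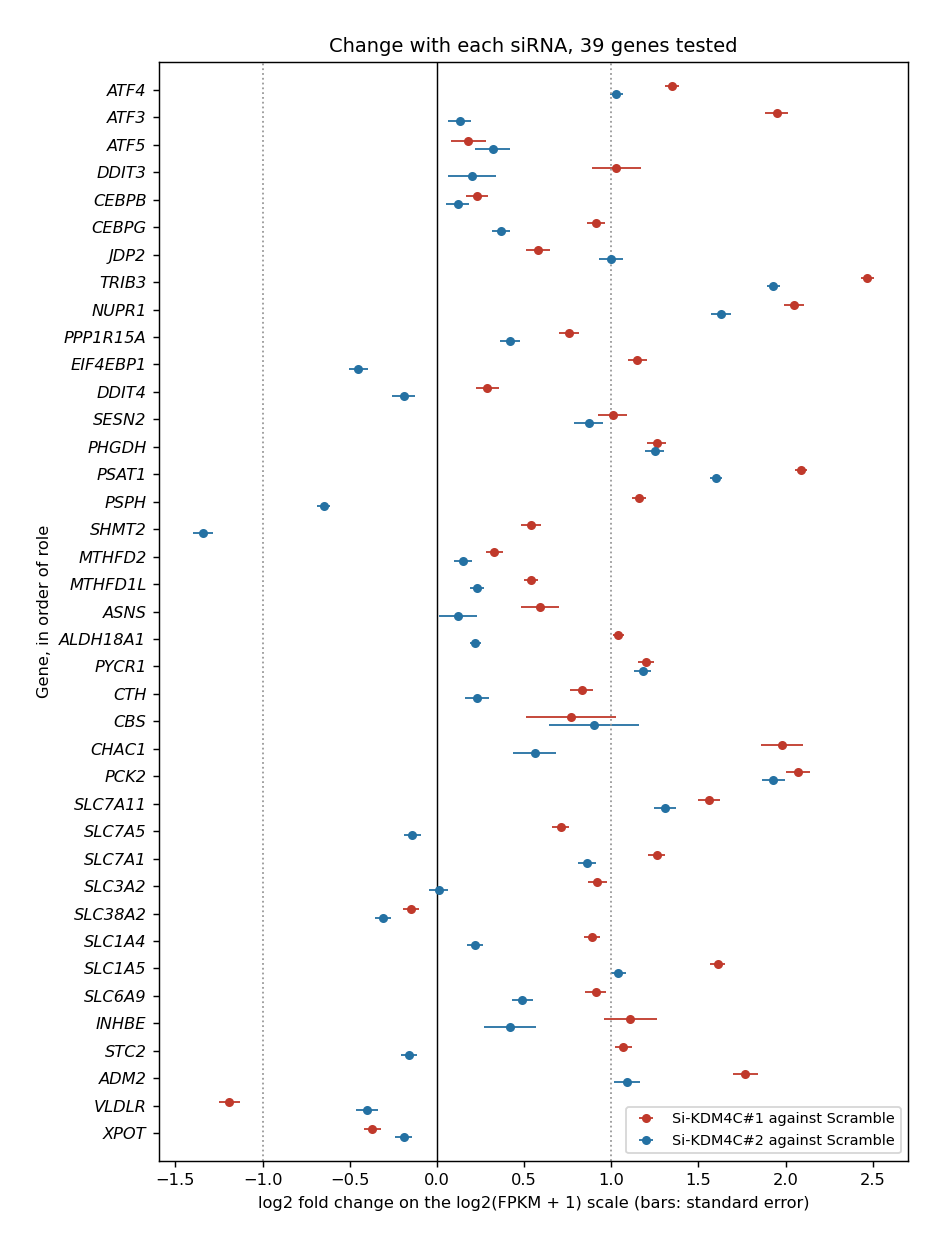
Points give the log2 fold change on the log2(FPKM + 1) scale of each of the 39 tested genes with Si-KDM4C#1 (red) and Si-KDM4C#2 (blue) against the shared Scramble libraries, bars the standard error, and dotted lines the fold change limit of 2. The red point lies to the right of the blue point in most rows, from TRIB3 at 2.47 and 1.93 to SHMT2 at 0.54 and -1.34.

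The serine and glycine pathway split between the siRNAs. It makes serine from a glycolytic intermediate through PHGDH, PSAT1 and PSPH in turn, and SHMT2 then turns serine into glycine and folate-bound carbon units in mitochondria. All 6 tested genes of this group were past the FDR higher with Si-KDM4C#1 and 3 were called. With Si-KDM4C#2, 4 were past the FDR higher and 2 called, while PSPH and SHMT2 were lower and SHMT2 was called. PHGDH (chr1:119648411-119744226) was at 14.4, 12.5 and 14.5 FPKM in the Scramble libraries, 34.4, 33.5 and 34.9 FPKM under Si-KDM4C#1 and 33.0, 35 and 34.1 FPKM under Si-KDM4C#2. Both knockdown groups lay well above Scramble and overlapped, with log2 fold changes of 1.26 and 1.25 (each with a standard error of 0.0556). PSAT1 (chr9:78297143-78330093) was at 48.0, 45.7 and 47.1 FPKM in the Scramble libraries, 203, 200.2 and 204 FPKM under Si-KDM4C#1 and 140.3, 151 and 143 FPKM under Si-KDM4C#2. The mean of PSAT1 was 4.31 times that of Scramble with Si-KDM4C#1 and 3.08 times with Si-KDM4C#2, and the groups did not overlap.

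PSPH and SHMT2 lay on opposite sides of Scramble with the siRNAs. PSPH (chr7:56011051-56051604) was at 19.1, 18.2 and 17.4 FPKM in the Scramble libraries, 42.3, 41.6 and 41.6 FPKM under Si-KDM4C#1 and 11.2, 11.2 and 11.3 FPKM under Si-KDM4C#2. The log2 fold changes of PSPH were 1.16 and -0.65 (each with a standard error of 0.0392), and the difference of -1.81 was called. PSPH has a near-identical pseudogene, PSPHP1, which was at 82.6, 100.2 and 14.3 FPKM on average with Scramble, Si-KDM4C#1 and Si-KDM4C#2, so the values of PSPH are uncertain where fragments could be split between them. Summed over both, the FPKM means were 101, 142 and 25.5, or 1.41 and 0.253 times Scramble. PSPH alone was at 2.29 and 0.616 times. The exon length is 261 bases for PSPHP1 and 2762 for PSPH, so this sum gives pseudogene fragments more weight and is not the pooled level. In fragments per library, PSPH had 796 to 823, 1676 to 2109 and 478 to 532 in the same order of groups. PSPHP1 had 314 to 368, 389 to 444 and 55 to 63. SHMT2 (chr12:57229327-57234935) was at 75.7, 72.9 and 81.5 FPKM in the Scramble libraries, 111, 113 and 112 FPKM under Si-KDM4C#1 and 27.4, 32.0 and 29.5 FPKM under Si-KDM4C#2. The lowest library with Si-KDM4C#1 was above every Scramble library and the highest library with Si-KDM4C#2 was below all of them. The log2 fold changes of SHMT2 were 0.54 and -1.34 (each with a standard error of 0.0582), and their difference of -1.89 was the largest between the siRNAs among the 39 genes.

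The mitochondrial folate enzymes moved less. MTHFD2 was at means of 29.8 ± 1.42, 37.7 ± 1.22 and 33.2 ± 1.74 FPKM (SD, n = 3) with Scramble, Si-KDM4C#1 and Si-KDM4C#2, and MTHFD1L at 17.9 ± 0.627, 26.5 ± 0.225 and 21.2 ± 0.808 FPKM. Both were past the FDR higher with each siRNA, and none of these changes reached the fold change limit. ALDH1L2, which oxidises formyl-folate in mitochondria, was under the filter at means of 0.318, 0.558 and 0.513 FPKM, from 32 to 94 fragments per library.

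**Figure D3:**
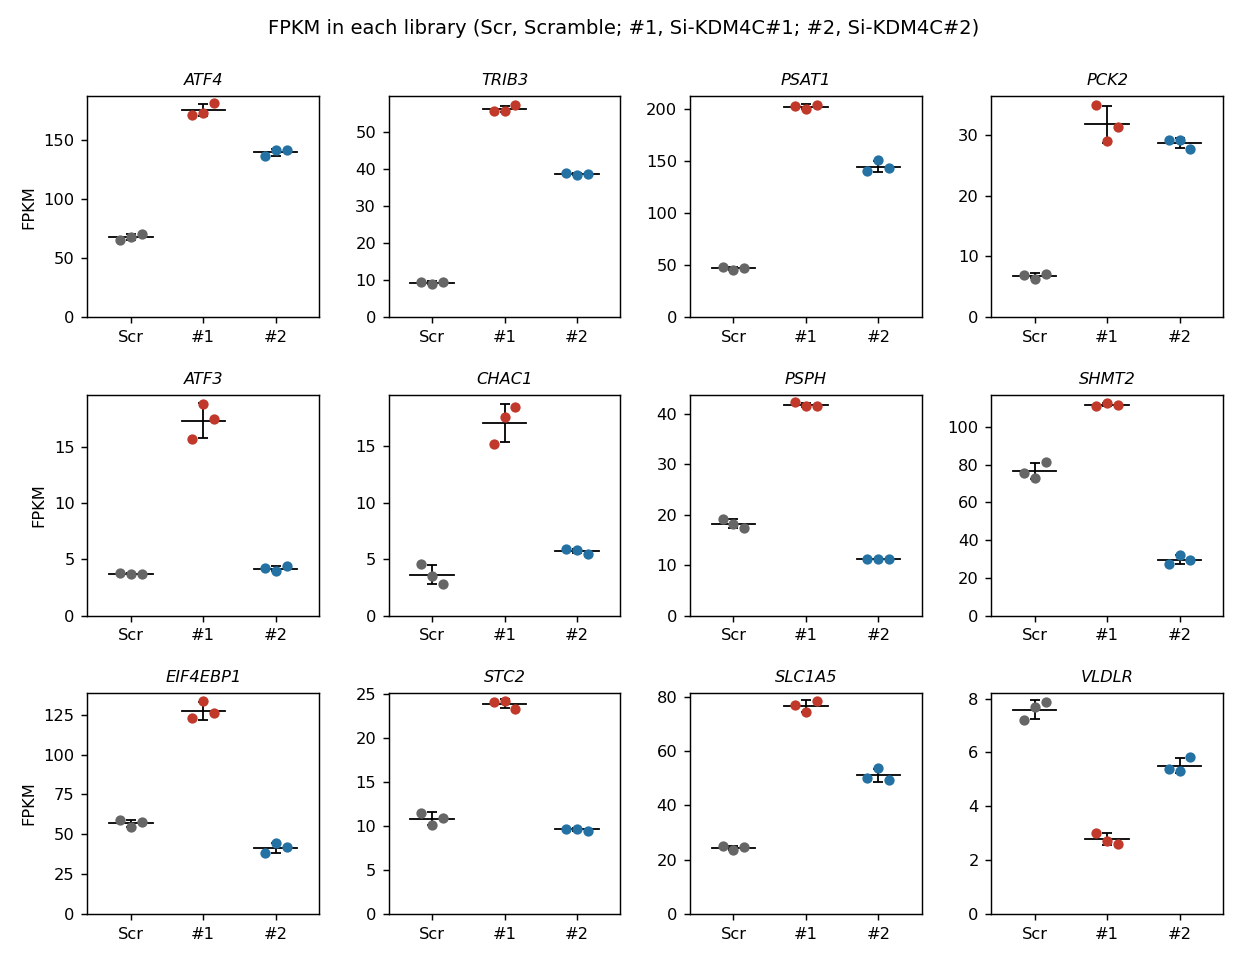
Each panel gives the FPKM of 1 gene, with a point for each library, a line for the group mean and a bar for the SD of 3 libraries, and every axis starts at 0. ATF4, TRIB3, PSAT1 and PCK2 were higher with both siRNAs, ATF3 and CHAC1 stood out with Si-KDM4C#1, PSPH, SHMT2, EIF4EBP1 and STC2 lay above Scramble with Si-KDM4C#1 and below it with Si-KDM4C#2, and VLDLR was lowest with Si-KDM4C#1.

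Among the other metabolic enzymes, all 7 were past the FDR higher with Si-KDM4C#1 and 4 were called, while 6 were past the FDR higher with Si-KDM4C#2 and 2 were called. PCK2 (chr14:24094053-24110598), the mitochondrial enzyme that makes phosphoenolpyruvate from oxaloacetate, was at 7.0, 6.32 and 7.08 FPKM in the Scramble libraries, 34.9, 28.9 and 31.3 FPKM under Si-KDM4C#1 and 29.1, 29.1 and 27.7 FPKM under Si-KDM4C#2. Both knockdown groups were high and overlapped each other, at 4.66 and 4.22 times the Scramble mean, with log2 fold changes of 2.07 and 1.93 (each with a standard error of 0.0678). PYCR1, which completes proline synthesis in mitochondria, was at 33.4, 30 and 34.4 FPKM in the Scramble libraries, 75.9, 76.5 and 76.3 FPKM under Si-KDM4C#1 and 74.1, 76.3 and 74.6 FPKM under Si-KDM4C#2. It was as high with either siRNA to within the overlap of their libraries, with log2 fold changes of 1.20 and 1.18. ALDH18A1, which acts before PYCR1 in the same pathway, was at 31.7, 32.8 and 32.6 FPKM in the Scramble libraries, 67.7, 67.5 and 67.7 FPKM under Si-KDM4C#1 and 38.6, 36.8 and 38.1 FPKM under Si-KDM4C#2. ALDH18A1 thus separated the siRNAs where PYCR1 did not, with log2 fold changes of 1.04 and 0.22.

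CHAC1, an enzyme that breaks down glutathione, was at 4.54, 3.48 and 2.84 FPKM in the Scramble libraries, 15.2, 17.6 and 18.5 FPKM under Si-KDM4C#1 and 5.89, 5.81 and 5.5 FPKM under Si-KDM4C#2. The groups did not overlap, and the Si-KDM4C#1 libraries were by far the highest. The log2 fold changes of CHAC1 were 1.98 and 0.56 (each with a standard error of 0.121), with a called difference of -1.42. CTH, which makes cysteine from cystathionine, was at means of 7.74 ± 0.773, 14.5 ± 0.493 and 9.22 ± 0.475 FPKM (SD, n = 3), past the FDR higher with each siRNA and called with neither. ASNS, asparagine synthetase and the best known ATF4 target, was listed at a low level, with means of 0.675 ± 0.0844, 1.52 ± 0.063 and 0.831 ± 0.184 FPKM (SD, n = 3) from 43 to 127 fragments per library. Of its exon length, 44.6% is shared with AC079781.5 on the same strand, and whether fragments there went uncounted was not tested. The ASNS log2 fold change of 0.59 with Si-KDM4C#1 was past the FDR, and that of 0.12 with Si-KDM4C#2 was not (adjusted p = 0.347, limma). CBS, which makes cystathionine, has a near-identical copy, CBSL, and the copy was at 0.194 to 5.12 FPKM in single libraries, without following the groups. Summed over both copies, the FPKM means were 2.84 ± 0.542, 4.89 ± 1.57 and 6.08 ± 2.51 (SD, n = 3), so the values of CBS are uncertain. The exon lengths are 6786 bases for CBS and 4004 for CBSL, so this sum is not a pooled fragment level either.

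The 8 amino acid transporters were past the FDR higher with Si-KDM4C#1 in 7 cases, of which 3 were called, and SLC38A2 was lower. With Si-KDM4C#2, 5 were higher, of which 2 were called, and 2 were lower. All 8 were lower with Si-KDM4C#2 than with Si-KDM4C#1 past the FDR, where 26.5% of all tested genes were. SLC7A11 (chr4:138164097-138242349), the cystine and glutamate exchanger, was at 3.83, 3.66 and 3.29 FPKM in the Scramble libraries, 12.1, 13.5 and 12.1 FPKM under Si-KDM4C#1 and 9.93, 10.8 and 10.4 FPKM under Si-KDM4C#2. The groups did not overlap, and the log2 fold changes were 1.56 and 1.31 (each with a standard error of 0.062). SLC1A5, the glutamine carrier ASCT2, was at 25, 23.6 and 24.5 FPKM in the Scramble libraries, 76.9, 74.5 and 78.6 FPKM under Si-KDM4C#1 and 50.1, 53.8 and 49.3 FPKM under Si-KDM4C#2. Each group was separate from the next, with log2 fold changes of 1.61 and 1.04, and the second was 0.76 with the GC adjustment and 1.0, just under the limit, without the second Si-KDM4C#2 library. SLC7A1, a carrier of cationic amino acids, was at 13.8, 14 and 12.5 FPKM in the Scramble libraries, 33.7, 35.2 and 32.2 FPKM under Si-KDM4C#1 and 25.8, 24.4 and 25.3 FPKM under Si-KDM4C#2. Its order was that of SLC1A5, with log2 fold changes of 1.26 and 0.86, the second under the fold change limit.

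The carrier SLC7A5 and its partner chain SLC3A2, which together import leucine, were among the most abundant members and differed between the siRNAs. SLC7A5 was at means of 300.3 ± 14.1, 491 ± 7.35 and 273 ± 16.7 FPKM (SD, n = 3), with log2 fold changes of 0.71 and -0.14 that were both past the FDR, although the Si-KDM4C#2 libraries overlapped those of Scramble. SLC3A2 was at means of 78.4 ± 3.25, 149.6 ± 5.07 and 79.1 ± 5.84 FPKM (SD, n = 3), with log2 fold changes of 0.92 and 0.01, and the sign of the second changed with the scaling, to -0.10 after quantile normalization. The neutral amino acid carrier SLC1A4, with means of 7.86, 15.4 and 9.35 FPKM, and the glycine carrier SLC6A9, with means of 14.9, 28.9 and 21.3 FPKM, were past the FDR higher with each siRNA and under the fold change limit. SLC38A2, the neutral amino acid carrier SNAT2, was at means of 268 ± 10.9, 241 ± 9.37 and 216 ± 9.28 FPKM (SD, n = 3). It was past the FDR lower with each siRNA, by log2 fold changes of -0.15 and -0.31, and the first turned to 0.11 with the GC adjustment.

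Of the 5 tested genes for secreted proteins, a receptor and tRNA export, 3 were called higher and 1 lower with Si-KDM4C#1, and 1 was called higher with Si-KDM4C#2. ADM2 (chr22:50481556-50486440), which encodes the peptide adrenomedullin 2, was at 1.02, 1.18 and 1.32 FPKM in the Scramble libraries, 6.32, 6.28 and 6.65 FPKM under Si-KDM4C#1 and 3.53, 3.38 and 4.0 FPKM under Si-KDM4C#2. The groups were separate, at 5.47 and 3.10 times the Scramble mean, and the log2 fold changes were 1.77 and 1.09 (each with a standard error of 0.0741). STC2, the secreted glycoprotein stanniocalcin 2, was at 11.5, 10.1 and 10.9 FPKM in the Scramble libraries, 24.1, 24.2 and 23.3 FPKM under Si-KDM4C#1 and 9.63, 9.70 and 9.45 FPKM under Si-KDM4C#2. Its libraries lay above Scramble with Si-KDM4C#1 and just below it with Si-KDM4C#2, with log2 fold changes of 1.07 and -0.16 and a called difference of -1.23. INHBE, a liver-enriched activin subunit, was at 1.89, 1.77 and 1.34 FPKM in the Scramble libraries, 5.88, 4.36 and 4.13 FPKM under Si-KDM4C#1 and 1.93, 2.83 and 3.01 FPKM under Si-KDM4C#2. The libraries of INHBE spread widely within groups, and its log2 fold change with Si-KDM4C#1, 1.11 (standard error 0.151), was 0.98 without the first library of that group.

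VLDLR and XPOT were lower with both siRNAs. VLDLR (chr9:2621834-2660053), a receptor for triglyceride-rich lipoproteins, was at 7.19, 7.67 and 7.89 FPKM in the Scramble libraries, 3.02, 2.70 and 2.61 FPKM under Si-KDM4C#1 and 5.40, 5.31 and 5.82 FPKM under Si-KDM4C#2. It was lowest with Si-KDM4C#1 and intermediate with Si-KDM4C#2, with log2 fold changes of -1.19 and -0.40 (each with a standard error of 0.0613). XPOT, which exports tRNA from the nucleus, was at means of 36.3 ± 1.47, 27.9 ± 1.72 and 31.7 ± 0.672 FPKM (SD, n = 3), past the FDR lower with each siRNA by less than the fold change limit. FGF21, a hormone that liver cells release under amino acid shortage, rested on 1 to 24 fragments per library. It ranged from 0.0446 to 1.01 FPKM over the libraries and lay under the filter.

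Within groups, the median coefficient of variation of the 41 genes was 6.13% for Scramble, 3.89% for Si-KDM4C#1 and 4.7% for Si-KDM4C#2, and FGF21 had the highest in each group. With Scramble, 3 of the 41 genes had a mean under 1 FPKM, 17 were at 1 to 10 FPKM, 19 at 10 to 100 FPKM and 2 above that, namely SLC7A5 and SLC38A2.

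Genes that act around this programme were grouped in 7 further lists, with 101 genes, of which 98 were listed and 88 tested. With Si-KDM4C#1, 6 of the 88 were called higher and 2 lower, and the numbers for Si-KDM4C#2 were 3 and 5, beside the shares of all tested genes given above (4.04% and 4.83%, and 2.6% and 2.3%). Past the FDR, 38 were higher and 33 lower for Si-KDM4C#1, and 28 and 36 for Si-KDM4C#2, where the shares of all tested genes were 31.7% and 33.9%, and 34.4% and 25%. The median log2 fold changes of these 88 genes were 0.08 and -0.07. The eIF2 kinases and eIF2 factors, which act before ATF4, had no gene called by limma with either siRNA among 17 tested, while 7 were past the FDR higher and 8 lower for Si-KDM4C#1, and 6 and 7 for Si-KDM4C#2. EIF2AK3, the kinase PERK, was at means of 6.22, 7.86 and 3.91 FPKM in the Scramble libraries, Si-KDM4C#1 and Si-KDM4C#2, and OMA1, a mitochondrial protease that relays stress to the kinase HRI, was at 1.54, 0.783 and 2.85 FPKM.

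Of 18 other amino acid enzymes, 13 were past the FDR higher and 2 lower with Si-KDM4C#1, where 31.7% and 33.9% of all tested genes were. With Si-KDM4C#2, 7 were higher and 5 lower, where 34.4% and 25% of all tested genes were. GPT2, a mitochondrial alanine aminotransferase, was called higher with Si-KDM4C#1, with a log2 fold change of 1.51, and 0.58 with Si-KDM4C#2. PYCR3, a cytosolic proline enzyme, was called with Si-KDM4C#2 alone, with log2 fold changes of 0.24 and 1.20. Among 15 other transporters, the cationic amino acid carrier SLC7A2 was called higher with Si-KDM4C#1 (log2 fold change 1.19), the glutamate carrier SLC1A1 was called lower with Si-KDM4C#1 (-1.19), and the lysosomal carrier SLC36A1 was called lower with Si-KDM4C#2 (-1.20). Of the 10 other serine, glycine and folate genes tested, none was called against Scramble by limma, with 4 past the FDR higher and 4 lower for Si-KDM4C#1 and 5 and 1 for Si-KDM4C#2, and SFXN1, a mitochondrial serine carrier, was at means of 29.8, 31.6 and 18.4 FPKM.

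In the list of the CHOP arm and cell death, 2 of 9 were called higher for Si-KDM4C#1 and 1 was called lower for Si-KDM4C#2. Of all tested genes, 4.04% and 2.3% were. Past the FDR, the list went both ways, with 5 higher and 3 lower for Si-KDM4C#1, where 31.7% and 33.9% of all tested genes were. For Si-KDM4C#2 it had 2 higher and 2 lower, where the shares were 34.4% and 25%. BBC3, which encodes the pro-apoptotic protein PUMA, was at means of 2.71, 19.7 and 3.35 FPKM in the Scramble libraries, Si-KDM4C#1 and Si-KDM4C#2, and GADD45A, a growth arrest gene, at 13.2, 36.1 and 13.8 FPKM. Both were called higher for Si-KDM4C#1 and differed between the siRNAs by -2.24 and -1.33, and TXNIP was called lower with Si-KDM4C#2 (-1.04). Among 9 mitochondrial stress genes, GDF15, a secreted stress hormone, was at means of 77.7, 263 and 18.4 FPKM, called higher for Si-KDM4C#1 (log2 fold change 1.74) and lower for Si-KDM4C#2 (-2.02). LONP1, the mitochondrial matrix protease, was called higher with both siRNAs (1.66 and 1.07), the chaperonin HSPD1 was called higher with Si-KDM4C#2 (1.3), and the import subunit TIMM17A was called lower with Si-KDM4C#2 (-1.13). In the nutrient sensing list, 7 of 10 genes were past the FDR lower with Si-KDM4C#1 and 8 with Si-KDM4C#2, where 33.9% and 25% of all tested genes were. SAMTOR, a methionine sensor of mTORC1, was called with Si-KDM4C#1 (-1.48), and SESN1, a relative of SESN2, with Si-KDM4C#2 (-1.34).

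**Figure D4:**
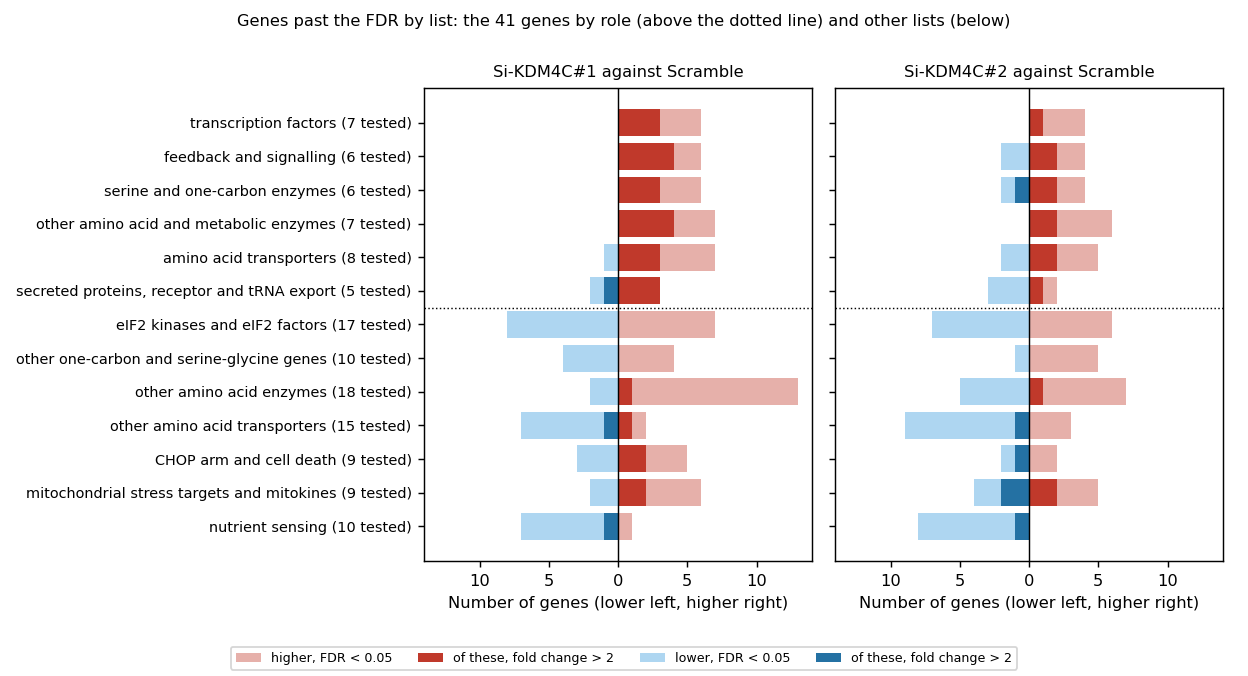
Bars give the number of genes past the FDR in each list, higher to the right and lower to the left, with the darker part also past the fold change of 2, for each siRNA against the shared Scramble libraries. The 6 role lists of the 41 genes lie above the dotted line and point mostly to the right with Si-KDM4C#1. The 7 other lists lie below it and differ in direction. The other amino acid enzymes also point mostly to the right with Si-KDM4C#1 (13 higher, 2 lower). Nutrient sensing points mostly to the left, with 1 higher and 7 lower for Si-KDM4C#1 and 0 and 8 for Si-KDM4C#2.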

How the data were processed

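RNA sequencing of Huh7 cells gave 9 libraries, 3 for each of Scramble, Si-KDM4C#1 and Si-KDM4C#2, grouped by the treatment in the labels. The values deposited by the authors are FPKM per gene in each library. The kit named in the labels does not mark strand, the sequencer is stated as an Illumina NovaSeq with paired ends, and the submitters' processing notes name FastQC 0.11.5, HISAT2 2.1.0, StringTie 1.3.3b, featureCounts and DESeq 1.28.0 with GRCh38, without a role for each. The annotation is not given in the sources used here. With the exon lengths of GENCODE release 29, 32080 of the 32906 listed genes (97.49%) came out as whole fragments (within 0.05) in all libraries, which gave the depth. A floor of 3 fragments is 0.1661 to 0.2055 FPKM at an exon length of 1 kb and covers counting error only.

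Genes whose mean reached 1 FPKM in any group were compared on log2(FPKM + 1) with limma 3.58.1 (R 4.3.3), with a trend in the empirical Bayes step, a single fit of the 9 libraries, and no covariate. Benjamini-Hochberg adjustment ran over all 14363 genes, and the limits for a call (FDR < 0.05, fold change > 2) are those of the study. Statistics were tested on simulated data. The 41 members, their roles and the 7 other lists were chosen with earlier results of these data known. Values by library are given for members called in a comparison and for the transcription factors, and from each other list the 3 genes with the largest change past the FDR in a comparison could be named. The GC adjustment was a lowess (span 0.3) over the GC content of exons. The alternatives were quantile normalization, median-ratio scaling, a pseudocount of 0.1, no filter, a filter of 1 FPKM in each library (11171 genes), a fit on only the 6 libraries compared, a replicate block, no fold change limit, limma voom on the recovered fragments (at least 10 in at least 3 libraries, 16010 genes) and leaving out each library. The GC adjustment (14343 genes), without and with the block, and the sums with CBSL and PSPHP1 were added after seeing the data. Summaries and plots were made in Python 3.11.15 (numpy 2.4.6, pandas 2.3.3, matplotlib 3.10.9). Promoter windows came from RefSeq (GRCh38.p14).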

Additional observations from a re-analysis of the deposited data

Results flagged for a closer look

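For 6 of the 39 tested genes (15.4%) the siRNAs went past the FDR in opposite directions against Scramble, up for Si-KDM4C#1 and down for Si-KDM4C#2, and the direct comparison of the siRNAs was past the FDR as well (limma, Benjamini-Hochberg adjustment over 14363 genes). Over all tested genes, 4.11% went past the FDR in these directions and 9.77% in opposite directions of either kind, and nothing is read from the gap, since the members were chosen with these comparisons known. The effect of Si-KDM4C#2 minus that of Si-KDM4C#1, on the log2(FPKM + 1) scale, was -1.89 for SHMT2, -1.81 for PSPH, -1.60 for EIF4EBP1, -1.23 for STC2, -0.85 for SLC7A5 and -0.47 for DDIT4. The Scramble libraries are shared by both effects and drop out of this difference. PSPH is uncertain because of its pseudogene, and 41.2% of the exon length of DDIT4 is covered by an antisense gene.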

How the results depend on the processing

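Of the 38 calls of members over the 3 comparisons, 12 were lost under at least 1 alternative and 0 turned their direction. Each loss came from the fold change limit, since the largest adjusted p (limma) of a called member over all alternatives was 0.00119. Without the fold change limit, the members past the FDR were 35 up and 3 down for Si-KDM4C#1, 25 and 9 for Si-KDM4C#2, and 3 and 29 for Si-KDM4C#2 against Si-KDM4C#1, and the other listed genes were 71, 64 and 66. With the GC adjustment, with or without the replicate block, 6 members were higher with Si-KDM4C#2 and 5 other listed genes were called there. With limma voom, 10 members were lower with Si-KDM4C#2 than with Si-KDM4C#1, and 13 other listed genes were called with Si-KDM4C#2 and 13 between the siRNAs. With a pseudocount of 0.1, 11 other listed genes were called between the siRNAs. For KDM4C the difference between the siRNAs was -0.73, past the FDR without the fold change limit, -1.69 with a pseudocount of 0.1 and -2.13 with limma voom. The causes were not tested.

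Signs turned for small values, and some of the turned values were past the FDR. With the GC adjustment without the block (limma), these were CEBPB (adjusted p = 0.00113) and SLC3A2 (adjusted p = 0.0195) with Si-KDM4C#2. The third was SLC38A2 with Si-KDM4C#1 (adjusted p = 0.0378), which was past the FDR on the lower side in the main fit (adjusted p = 0.0154, limma). With the GC adjustment, with and without the block, the log2 fold change of ATF5 with Si-KDM4C#1 was -0.02, of CEBPB -0.10 with Si-KDM4C#1 and -0.27 with Si-KDM4C#2, of SLC38A2 with Si-KDM4C#1 0.11 and of SLC3A2 with Si-KDM4C#2 -0.18. SLC3A2 with Si-KDM4C#2 was also at -0.10 after quantile normalization, -0.07 after median-ratio scaling, -0.05 with limma voom, and -0.05 to 0.05 without a library, negative without the second Scramble (-0.02) and the second Si-KDM4C#2 library (-0.05). Between the siRNAs, PHGDH was at 0.04 and PYCR1 at 0.04 after quantile normalization, PHGDH at 0.01 without the third Si-KDM4C#1 or the first Si-KDM4C#2 library, and CBS, at 0.14 with all libraries, at 0.42 without the third Si-KDM4C#1, -0.03 without the second Si-KDM4C#1 and -0.07 without the second Si-KDM4C#2 library.

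When single libraries were left out, 18 to 20 members were called higher and 1 lower for Si-KDM4C#1, 10 to 11 and 1 for Si-KDM4C#2, and 0 higher and 6 lower between the siRNAs. Other listed genes ranged from 8 to 10, 7 to 9 and 6 to 7, and KDM4C from -1.43 to -1.39, -2.18 to -2.12 and -0.77 to -0.72. The deviations of same-numbered libraries (9 pairs) correlated at 0.0162 on average and those of the 18 other pairs at -0.0081, so the replicate numbers were not taken as a pairing. With the replicate block, 20 members were higher with Si-KDM4C#1 and 10 with Si-KDM4C#2, and the block changed no call of a member. FGF21, ALDH1L2 and ASNS rest on few fragments, which limits their values, and for ASNS the part of the shared exons was not tested.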

Other observations

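The proline genes did not move as one. PYCR1 was at mean levels of 32.6, 76.2 and 75 FPKM with Scramble, Si-KDM4C#1 and Si-KDM4C#2, ALDH18A1 at 32.4, 67.6 and 37.8 FPKM, and PYCR3 at 5.2, 6.35 and 13.2 FPKM. The direct difference between the siRNAs, Si-KDM4C#2 minus Si-KDM4C#1 on the log2 scale, was -0.02 for PYCR1 (adjusted p = 0.693, limma), -0.82 for ALDH18A1 (adjusted p = 5.29e-08, limma) and 0.96 for PYCR3 (adjusted p = 1.86e-06, limma). These genes were set side by side after their values had been seen.

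In the serine pathway, PHGDH did not differ past the FDR between the siRNAs, with a log2 difference of -0.01 (adjusted p = 0.912, limma). The log2 difference of PSAT1 was -0.48, and those of the genes that act after it, PSPH and SHMT2, were -1.81 and -1.89. SFXN1, which carries serine into mitochondria, differed by -0.75 (adjusted p = 3.52e-07, limma). The folate enzymes MTHFD2 and MTHFD1L differed by only -0.18 and -0.31. Of the other serine, glycine and folate genes, MTHFD1 differed by -0.08 and SHMT1 by 0.21. PSPH is uncertain because of its pseudogene, and these genes were set side by side after their values had been seen.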
